A study of Mus musculus with 6 samples.

Results

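Mediator is the large protein assembly that carries signals from DNA-bound transcription factors to RNA polymerase II at promoters. Its subunits form a head and a middle that contact the polymerase, a tail that docks transcription factors, a scaffold subunit, MED14, that runs through all of these, and a separable kinase module that binds the core reversibly. MED23 sits in the tail beside MED16 and MED24 and is known as the docking site of the ETS factor ELK1. The genes described here were the 33 Mediator subunit genes, taken by name, and all 33 of 33 were measured on the arrays among 18193 genes in all. They were read by 72 of 45037 probe sets, counting those that the platform annotation gives to 1 member symbol alone. Of the members, 14 had 1 probe set and 19 had more, up to 7 for Med1.

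Expression was measured on Affymetrix arrays in Med23 knockout embryonic stem (ES) cells and in wild-type ES cells, both of the 129SV strain and both harvested 24 hours after a change to fresh complete medium. Each genotype had 3 arrays, labelled as biological replicates. The labels give neither the clone or number of knockout lines nor the deleted part of the gene, so a difference between the groups is a difference between these cultures. Values are log2, as deposited, a difference is knockout minus wild-type, and a difference was called at a limma adjusted p under 0.05 over all 45037 probe sets. A gene with several probe sets was represented by the one with the highest mean over the 6 arrays, and its other probe sets are described where they passed the test or differ from it in direction. Levels of different probe sets are not comparable.

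The arrays had medians between 4.61 and 4.64, and the median over all probe sets, 4.62, served as a mark below which a value may be background. All 10 ES cell markers examined, among them Pou5f1, lay above that mark on every array, and 2 of them fell, Klf4 by 0.63 and Tdgf1 by 0.28. Of 12 endoderm markers, 10 fell, and their summed linear level ran from 863 to 970 in knockout arrays and from 4242 to 5253 in wild-type arrays. Of 10 fibroblast markers, 7 lay below the mark in both groups, the collagen genes Col1a1 and Col3a1 among them, and the summed level of the list was 2281 to 2354 in knockout arrays and 1790 to 1856 in wild-type arrays, most of it from Fn1. In this list Fn1 rose by 0.39, while Thy1 fell by 0.73 and Twist1 by 0.61. The part of these other cells in the differences below was not tested. Less RNA per cell and fewer cells that hold it cannot be told apart in such bulk samples. Wild-type replicate 1 stood apart from its fellow replicates, with 752 probe sets at least 1 log2 unit below their mean and 1 as far above it. Among the representative probe sets of the members, only that of Med13 was that far below.

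Most Mediator transcripts kept levels within a narrow range of the wild-type values. By representative probe set, 3 of 33 members rose (Med21, Med29 and Med19), 4 fell (Med23, Med14, Med22 and Med20) and 26 did not pass the test. Over all genes, dim ones included, 8.53% rose and 10.4% fell. For all 33 members the higher group mean lay above the mark of 4.62, so these shares are not a like background. With dim probe sets left out of the test, 5 members rose and 6 fell, beside 3790 higher and 3720 lower of 23090 probe sets. The median difference of the members was 0.05, beside 0.02 over all genes. The 26 members that did not pass had differences between -0.27 and 0.81, the upper end being Med13, for which wild-type replicate 1 alone was low. Over all probe sets of the members, 7 rose, 8 fell and 57 did not pass, beside 6.69% higher and 7.43% lower among all probe sets of the arrays. At the level of genes, 9 members had at least 1 probe set called and 24 had none. Any probe set rose in 5 members and fell in 5, beside 11.3% and 12.4% of all genes.

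**Figure D1:**
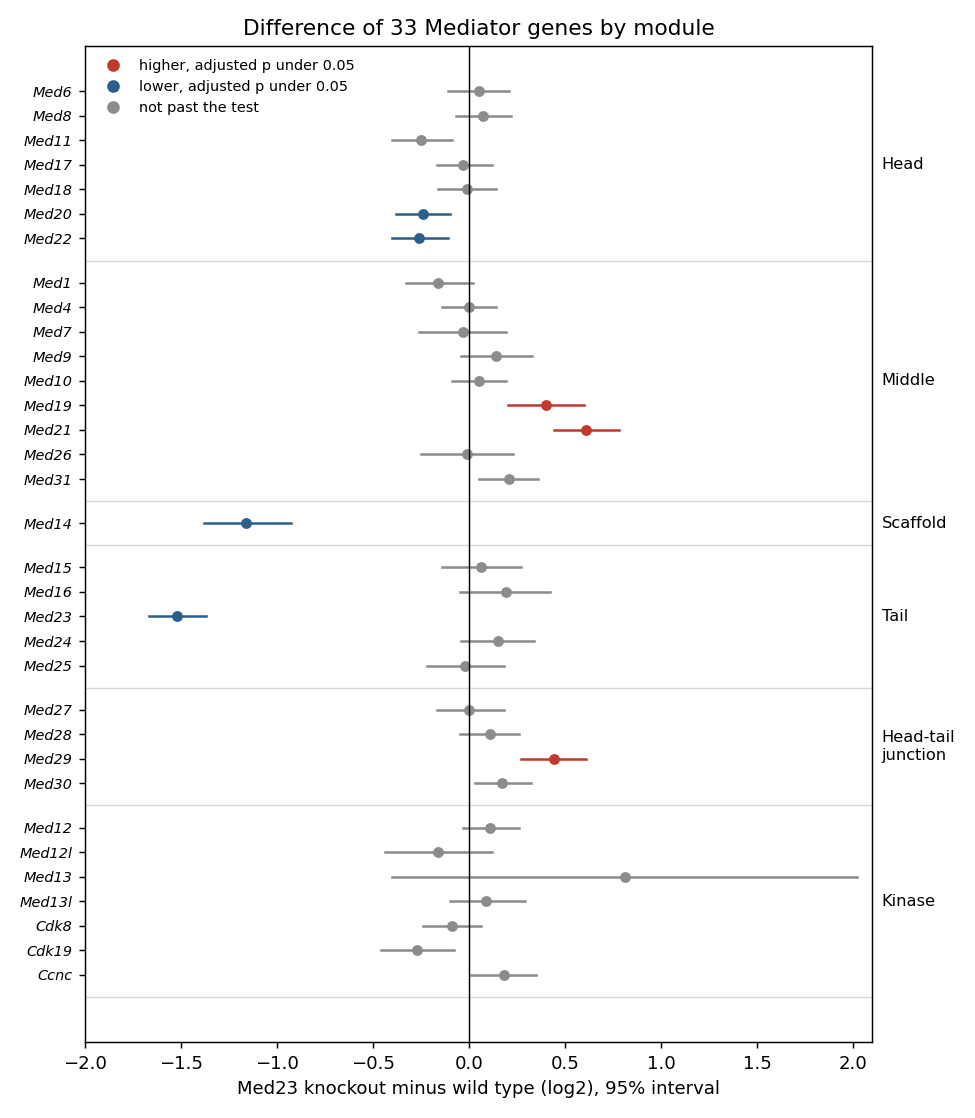
Difference between knockout and wild-type arrays (log2, horizontal axis) for the representative probe set of each of the 33 Mediator genes, grouped by module, with 95% intervals from the limma fit. Med23 (-1.52) and Med14 (-1.16) lie far to the left, Med21 (0.61), Med29 (0.44) and Med19 (0.40) to the right, and the wide bar of Med13 stems from 1 low wild-type array.

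The tail holds the targeted subunit. Med23 read 7.40, 7.37 and 7.33 on the 3 knockout arrays, against 8.95, 8.86 and 8.84 on the 3 wild-type arrays. The groups were far apart and each was tight, and the difference was -1.52 (95% interval -1.67 to -1.37, limma adjusted p = 2.69e-05). In all, 215 called probe sets of the arrays, Med23 included, fell by at least as much. The knockout values lay well above the mark of 4.62, and whether the single probe set for Med23 lies inside the deleted part is not stated by the labels.

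The tail neighbours of MED23 did not pass the test. Med16, whose product joins MED23 and MED24 in a tail submodule, read 8.37, 8.32 and 8.36 in knockout arrays and 8.36, 8.13 and 7.99 in wild-type arrays. The knockout arrays clustered at the top of the wild-type range, and wild-type replicate 1 lay among them. The difference was 0.19 (95% interval -0.05 to 0.42, limma adjusted p = 0.291). Without wild-type replicate 1 it was 0.28 and passed (adjusted p = 0.0455), so the call rests on that array. Med24 read 8.09, 8.11 and 8.11 in knockout arrays and 8.10, 7.85 and 7.91 in wild-type arrays, again with overlap through wild-type replicate 1. Its difference was 0.15 (95% interval -0.04 to 0.34, limma adjusted p = 0.294), and it was 0.22 without that array (adjusted p = 0.0593). The intervals of both genes leave out a fall beyond 0.05 log2 units in size. The other Med24 probe set was dim, at 3.19 in knockout and 3.27 in wild-type arrays on average.

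The remaining tail genes showed small differences. Med15, whose product binds several activators, differed by 0.06 on its brightest probe set (95% interval -0.14 to 0.27), and its 3 further probe sets did not pass. Med25, another docking subunit for activators, differed by -0.02 (95% interval -0.22 to 0.18) on one probe set and by 0.04 on the other. The tail as a whole thus had 1 of 5 genes lower, the targeted one, and none higher.

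**Figure D2:**
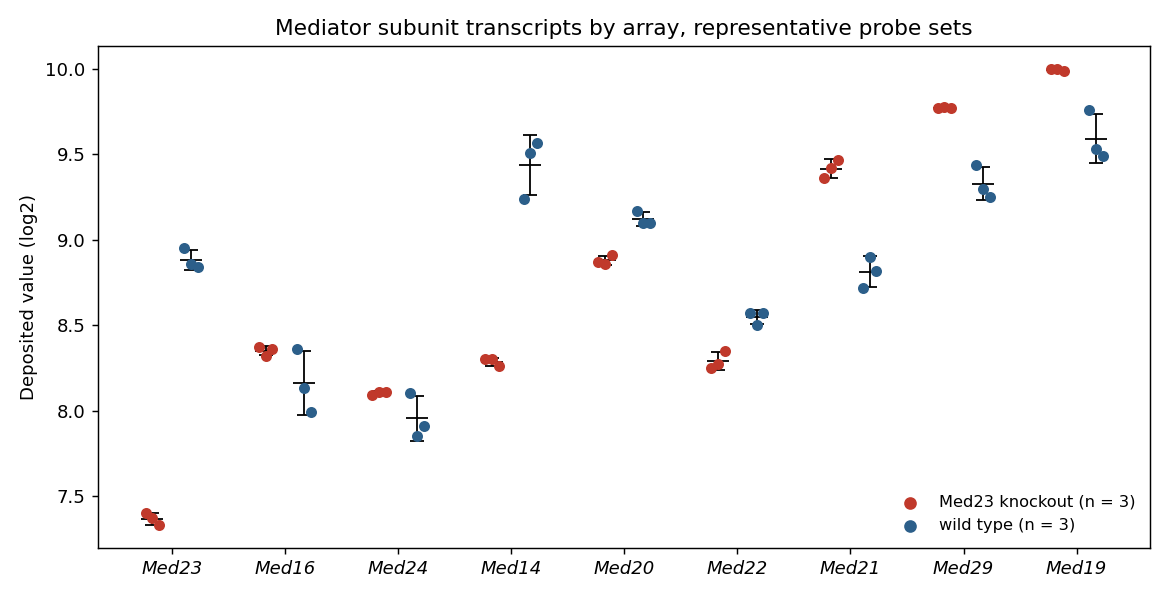
Deposited log2 values (vertical axis) of the representative probe sets of Med23, its tail neighbours Med16 and Med24 and the 6 further members called by representative probe set, with each array as a point and the mean and SD of 3 arrays as bars. Knockout and wild-type points overlap only for Med16 and Med24, where wild-type replicate 1, at 8.36 and 8.10, lies within the knockout range.

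The scaffold gene Med14 had the second-largest fall by representative probe set among the members. It read 8.30, 8.30 and 8.26 in knockout arrays and 9.24, 9.51 and 9.57 in wild-type arrays. The groups did not overlap, and the difference was -1.16 (SE 0.10, limma adjusted p = 0.000409), a level 2.23-fold higher in wild type. Another pair of its 5 probe sets fell, by 0.80 (adjusted p = 0.00381) and by 0.37 (adjusted p = 0.0121), both with knockout means below the mark of 4.62, so that the size of these falls is uncertain, and the smaller fall was not called without knockout replicate 1 or 3 (adjusted p 0.0557 and 0.0575). The next brightest, at 6.01 in knockout and 6.09 in wild-type arrays, had a difference of -0.08 (adjusted p = 0.676), and the dimmest one of -0.67 (adjusted p = 0.0538).

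Med14 lies on the X chromosome in a stretch where many genes were lower. Of its 20 nearest genes with a mean value above 7, from Wdr13 to Cdk16, 13 fell and none rose, with a median difference of -0.68. Med14 lay 0.48 log2 units further down than that median and within the range of these neighbours, -1.26 to 0.24. Over the 245 such genes of the X chromosome the median was 0.04, with 35 higher and 51 lower, and over the 7375 autosomal ones it was 0.03, with 995 higher and 978 lower. Med12, the other X-linked member, differed by 0.11, and its own neighbours had a median of 0.06. The Y-linked gene Eif2s3y read 9.88, 9.71 and 10.01 in knockout arrays, against 3.40, 2.66 and 3.05 in wild-type arrays, so the groups also differ in Y-linked expression. Xist, whose RNA silences an X chromosome, differed by 0.51 without passing (adjusted p = 0.0668). The part of this difference and of the stretch in the Med14 value was not tested.

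**Figure D3:**
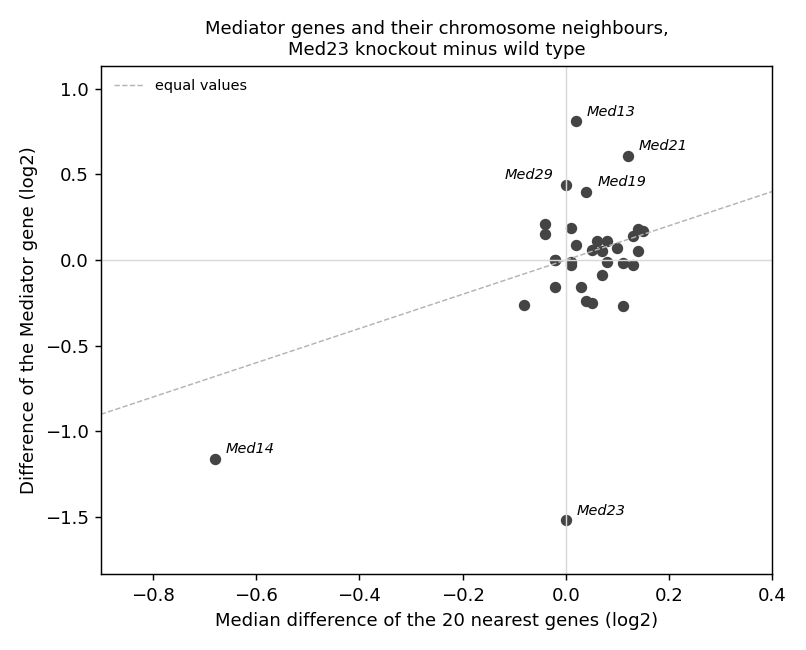
Difference of each of the 33 Mediator genes (log2, vertical axis) against the median difference of its 20 nearest genes with a mean value above 7 (log2, horizontal axis), knockout minus wild-type. Med14 is the only member whose neighbours were low as a group (-0.68), while Med23 lies at -1.52 with neighbours at 0.00.

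The middle module, which links the head to the tail and to the polymerase, held 2 of the 3 genes called higher by representative probe set. Med21, whose product pairs with MED7 in the hinge of the middle, read 9.36, 9.42 and 9.47 in knockout arrays and 8.72, 8.90 and 8.82 in wild-type arrays. The groups did not overlap, and the difference was 0.61 (SE 0.07, limma adjusted p = 0.0019), or 1.52-fold higher in the knockout. Med7 itself differed by -0.03 (95% interval -0.26 to 0.19). Med19, which encodes another middle subunit, read 9.99 or slightly more on each knockout array (9.99 ± 0.01, SD, n = 3) and 9.76, 9.53 and 9.49 in wild-type arrays. The groups did not overlap. Its difference was 0.40 (SE 0.08, limma adjusted p = 0.0204), and a second probe set lay higher by 0.31 without passing (adjusted p = 0.0677). The Med19 call ended when any array other than wild-type replicate 1 was left out, with adjusted p between 0.0568 and 0.0744. The 20 nearest genes had median differences of 0.12 around Med21 and 0.04 around Med19.

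Med1, which encodes the subunit bound by nuclear receptors, gave answers that depended on the probe set. Its representative probe set read 8.79, 8.89 and 8.83 in knockout arrays and 9.05, 9.05 and 8.87 in wild-type arrays, a difference of -0.16 that did not pass (limma adjusted p = 0.246). On the probe set with the next highest mean, however, knockout arrays read 9.31, 9.38 and 9.33, against 7.39, 7.44 and 7.24 in wild-type arrays. That is a rise of 1.98 (SE 0.07, limma adjusted p = 2.16e-05), or 3.94-fold, larger in size than the fall of Med23. Only 35 called probe sets of the arrays, this one included, rose by as much.

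A further pair of Med1 probe sets rose as well. On one the values were 7.10, 7.22 and 7.23 in knockout arrays and 5.94, 6.11 and 5.90 in wild-type arrays (difference 1.20, limma adjusted p = 0.000161). On the other they were 7.46, 7.43 and 7.31 in knockout arrays and 6.99, 6.71 and 6.94 in wild-type arrays (difference 0.52, limma adjusted p = 0.0105). All 6 group means of these 3 probe sets lay above the mark of 4.62, and in none of them did the groups overlap. The platform annotation derives these 3 probe sets from 1 shared source transcript, from which none of the other 4 Med1 probe sets was derived. Those 4 had differences between -0.19 and -0.01 and did not pass. All 3 stayed called whichever array was removed, with differences of 1.92 to 2.02, 1.16 to 1.26 and 0.43 to 0.58. Over all genes with more than 1 probe set, 9.18% were likewise called on some probe set but not on the representative one. Among the members this was the case for Med1 and Cdk19. The Med1 neighbours on chromosome 11, among which 1 rose and 4 fell, had a median of -0.02.

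**Figure D4:**
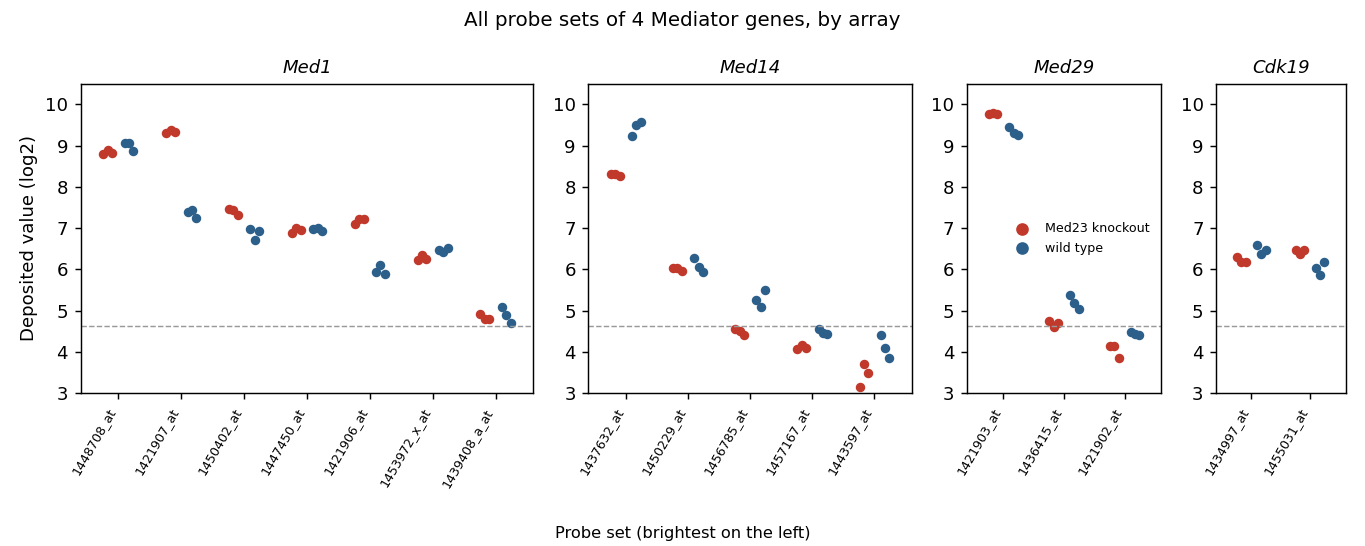
Deposited log2 values (vertical axis) on every array for all probe sets of Med1, Med14, Med29 and Cdk19, ordered by mean value within each gene, with the dashed line at the median of all probe sets (4.62). The 3 Med1 probe sets that rose stand out by gaps of 0.52 to 1.98 between the groups, and the other 2 Med29 probe sets run opposite to its brightest one.

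The other middle genes did not pass. Med31, a small subunit of this module, was nearest to passing, at 10.26 ± 0.03 in knockout and 10.05 ± 0.07 in wild-type arrays (SD, n = 3 each), without overlap, a difference of 0.21 (limma adjusted p = 0.0814). Med9 differed by 0.14 (adjusted p = 0.303) and by 0.05 on its second probe set. Med4, Med10 and Med26, the last of which encodes the docking subunit for elongation factors, had differences of 0.00, 0.05 and -0.01, and a dimmer Med26 probe set had one of 0.20 (adjusted p = 0.274).

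In the head, both called genes fell by little. Med20, whose product forms a movable jaw with MED18, read 8.87, 8.86 and 8.91 in knockout arrays and 9.17, 9.10 and 9.10 in wild-type arrays. The difference was -0.24 (SE 0.06, limma adjusted p = 0.0366), and its second probe set gave -0.22 (adjusted p = 0.0661). Med22 read 8.25, 8.27 and 8.35 in knockout arrays and 8.57, 8.50 and 8.57 in wild-type arrays, a difference of -0.26 (SE 0.06, limma adjusted p = 0.0364). Neither gene's groups overlapped. Both calls ended when any 1 of the 6 arrays was left out (adjusted p 0.0585 to 0.13) and when each array was centred on its median (0.0533 and 0.0517). Med11, whose product partners MED22, read 9.06, 9.09 and 9.14 in knockout arrays and 9.42, 9.27 and 9.33 in wild-type arrays, and had a difference of -0.25 that did not pass (adjusted p = 0.0532). Med18 differed by -0.01, Med17 by -0.03, Med6 by 0.05 and Med8 by 0.07, with intervals on these representative probe sets that stayed within 0.22 in size. The second Med8 probe set ran the other way, at 4.56 in knockout and 5.02 in wild-type arrays on average, a difference of -0.46 (95% interval -0.87 to -0.04, limma adjusted p = 0.15). Without wild-type replicate 1 it was called lower (-0.61, adjusted p = 0.0485). The further probe sets of Med6 differed by -0.08 and -0.11, and that of Med17 by 0.15, without passing.

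MED27, MED28, MED29 and MED30 lie where head and tail meet and are placed in either module by different descriptions. Med29 read 9.77, 9.78 and 9.77 on its brightest probe set in knockout arrays and 9.44, 9.30 and 9.25 in wild-type arrays, a rise of 0.44 (SE 0.07, limma adjusted p = 0.00717). Its other probe sets fell, by 0.52 (adjusted p = 0.0124) and by 0.40 (adjusted p = 0.0324), with knockout means of 4.68 and 4.05 and wild-type means of 5.21 and 4.44. The first of these had a knockout mean close to the mark of 4.62, and the second lay below it in both groups, so the size of these falls is uncertain. The direction called for Med29 therefore depends on the probe set, and Med29 was the only member with calls both ways. Among all 18193 genes, 50 (0.275%) had such calls, which only the 9010 genes with more than 1 probe set could have. The first of these falls was not called without knockout replicate 2 (adjusted p = 0.0557), the second not when any array was left out (adjusted p up to 0.0923), and the mean over the 3 probe sets gave -0.16. Med30 differed by 0.17 (adjusted p = 0.12), Med28 by 0.11, with -0.03 on its second probe set, and Med27 by 0.00.

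None of the 7 genes of the kinase module passed by representative probe set. Of them 2, Cdk19 and Ccnc, had an unadjusted limma p under 0.05. The share of all genes under that p was at least 18.9%, the share called after adjustment. The module has a cyclin-dependent kinase, CDK8 or its paralog CDK19, with cyclin C, MED12 or MED12L and MED13 or MED13L. Cdk8 averaged 10.62 ± 0.01 in knockout arrays and 10.70 ± 0.07 in wild-type arrays (SD, n = 3 each), a difference of -0.09 (95% interval -0.24 to 0.06). Cdk19 had a pair of probe sets that ran opposite ways. On the dimmer one it read 6.48, 6.37 and 6.47 in knockout arrays and 6.04, 5.87 and 6.17 in wild-type arrays, a rise of 0.41 (limma adjusted p = 0.0235). On its representative it read 6.30, 6.17 and 6.18 in knockout arrays and 6.60, 6.37 and 6.48 in wild-type arrays, a difference of -0.27 (adjusted p = 0.0748). The rise was not called once wild-type replicate 2 or any single knockout array was removed (adjusted p 0.057 to 0.0878), while -0.27 passed when dim probe sets were left out of the test (adjusted p = 0.0369).

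For the other paralogs no probe set passed. Med12, which activates the kinase, had a difference of 0.11 (95% interval -0.03 to 0.26), and Med12l, read at 5.58 in knockout and 5.74 in wild-type arrays on its brightest probe set, one of -0.16 (95% interval -0.44 to 0.12). The further Med12l probe sets, dim in both groups, differed by 0.03 and 0.05. Med13, which tethers the kinase to the core, read 7.11, 7.20 and 7.23 in knockout arrays and 5.02, 7.09 and 7.01 in wild-type arrays. Its difference of 0.81 (SE 0.51, limma adjusted p = 0.385) shrank to 0.13 without wild-type replicate 1, and the 4 dimmer probe sets differed by -0.12 to 0.28. Med13l differed by 0.09 (95% interval -0.10 to 0.29). Ccnc, the cyclin C gene, read 8.70, 8.83 and 8.79 in knockout arrays and 8.50, 8.64 and 8.66 in wild-type arrays on its brightest probe set, without overlap. The difference was 0.18 (limma adjusted p = 0.174), and the other 4 did not pass, with differences of -0.35, -0.07, -0.01 and 0.03. The one that differed most was at 5.74 in knockout and 6.09 in wild-type arrays on average, without overlap (difference -0.35, 95% interval -0.63 to -0.07, limma adjusted p = 0.102). Without wild-type replicate 1 it was called lower (-0.46, adjusted p = 0.0241), as was a further Ccnc probe set (-0.37, adjusted p = 0.0243) whose difference over all 6 arrays was -0.07.

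Promoters are shown for the 3 members with the largest called differences on any probe set, Med23 left aside. Their products lie in the scaffold and the middle of the complex, and their called probe sets changed in opposite directions. For Med1 the representative probe set was not among those called. Each sequence is the stretch of 250 bases before the start, on the strand of the gene, from RefSeq on GRCm38.p6. Med1 is at chr11:98192907-98193156 (minus strand), Med14 at chrX:12761974-12762223 (minus strand) and Med21 at chr6:146642329-146642578 (plus strand). Capitals mark matches, on either strand, to the ETS core CCGGAA, the GC box GGGCGG, the CCAAT box CCAAT and the TATA box TATAAA.
Med1: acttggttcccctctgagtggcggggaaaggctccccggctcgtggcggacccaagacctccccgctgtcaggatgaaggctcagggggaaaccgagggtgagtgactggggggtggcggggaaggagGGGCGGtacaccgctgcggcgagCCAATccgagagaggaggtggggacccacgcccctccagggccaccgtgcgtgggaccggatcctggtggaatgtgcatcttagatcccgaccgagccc
Med14: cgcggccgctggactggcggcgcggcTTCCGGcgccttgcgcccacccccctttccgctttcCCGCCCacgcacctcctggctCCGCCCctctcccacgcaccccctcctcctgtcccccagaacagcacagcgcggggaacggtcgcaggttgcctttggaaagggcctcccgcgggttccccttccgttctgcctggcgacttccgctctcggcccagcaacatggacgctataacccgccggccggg
Med21: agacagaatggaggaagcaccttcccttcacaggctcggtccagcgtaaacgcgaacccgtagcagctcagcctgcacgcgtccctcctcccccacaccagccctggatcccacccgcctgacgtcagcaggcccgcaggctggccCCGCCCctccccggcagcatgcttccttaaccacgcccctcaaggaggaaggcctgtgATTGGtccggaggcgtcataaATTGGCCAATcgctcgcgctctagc
Med1 held 1 GC box and 1 CCAAT box, Med14 held 1 ETS core and 2 GC boxes, and Med21 held 1 GC box and 3 CCAAT boxes. None of the marked matches overlapped another, and none of the 3 windows held the TATA letters. G and C made up 68.0%, 72.0% and 64.8% of the bases.

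Of the 33 members, 28 matched the RefSeq promoter table, and Med7, Med10, Med15 and Med27 had more than 1 window each. The ETS core was found in 10 of the 28 members, beside 12% of all 32851 windows of this length. Those 10 were Ccnc, Med4, Med7, Med10, Med12, Med14, Med15, Med17, Med19 and Med20. Of them only Med14, Med19 and Med20 had a called probe set. Med1, Med21, Med22 and Med29, which also had one, were not among the 10. The GC box was found in 19 of 28 members, beside 32.7% of windows, the CCAAT box in 11, beside 33.8%, and the TATA box in 3, beside 12.4%. Members with several windows had more than 1 chance of a match, and all windows include those of non-coding genes. A match is a run of letters, not a measured binding site.

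Genes whose products work with Mediator were examined in 4 lists. All their measured genes lay above the mark of 4.62 on every array, whereas the shares over all genes include dim ones. RNA polymerase II and the general factors, which Mediator assembles at promoters, were read for 28 of 31 genes. None passed the test in either direction in the limma fit (median difference -0.01), beside 8.53% higher and 10.4% lower over all genes. An unadjusted limma p under 0.05 was found for 8, beside at least 18.9% of all genes, the share called after adjustment. The lowest p values were those of Ercc2, a helicase gene of the general factor TFIIH (difference -0.33, adjusted p = 0.0698), and of the polymerase subunit gene Polr2d (0.21, adjusted p = 0.0861). Leaving dim probe sets out of the test called 3 genes higher and 3 lower in this list, beside 3790 and 3720 of 23090 probe sets. The intensity trend called 2 higher and 2 lower, and the mean over probe sets called 2 higher. Leaving out wild-type replicate 3 called 1 lower.

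Of 18 measured elongation partners, 3 rose and 1 fell (median difference 0.07), beside 8.53% higher and 10.4% lower over all genes. Aff1, a scaffold gene of the super elongation complex, read 8.72, 8.84 and 8.71 in knockout arrays and 8.24, 8.11 and 7.90 in wild-type arrays, a rise of 0.67 (SE 0.10, limma adjusted p = 0.00438). Mllt3, which encodes another part of that complex, rose by 0.54 (adjusted p = 0.00134), and Larp7, which encodes a protein that holds the kinase P-TEFb in reserve, by 0.34 (adjusted p = 0.0369). The Larp7 call was lost with the replicate number as a block (adjusted p = 0.0631) and when any array but wild-type replicate 3 was left out (0.0583 to 0.13), and Mllt3 was not called by the mean over its probe sets. Eaf1, which encodes a partner of the elongation factor ELL, read 7.75, 7.79 and 7.80 in knockout arrays and 8.97, 8.92 and 8.83 in wild-type arrays, a fall of 1.12 (adjusted p = 8.95e-05). Of its 20 nearest genes on chromosome 14, 19 fell, with a median of -0.72.

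Cohesin, which joins with Mediator at enhancer loops, and its loader were read for all 10 genes. Of these, 2 fell and none rose (median difference 0.10), beside 10.4% lower and 8.53% higher over all genes. Wapl, which encodes the factor that releases cohesin, fell by 0.76 (limma adjusted p = 0.00229), the same as the median of its own 20 neighbours on chromosome 14 (-0.76, with 17 lower), and the loader gene Mau2 fell by 0.41 (adjusted p = 0.0253). Mau2 was not called without wild-type replicate 1 or 2 or knockout replicate 2 or 3 (adjusted p 0.0514 to 0.0971), nor by the mean over its probe sets. For this list wild-type replicate 1 mattered: the other loader gene, Nipbl, read 7.23, 6.51 and 7.02 in knockout arrays and 5.12, 7.65 and 7.80 in wild-type arrays.

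Of 4 measured genes for factors that bind MED23, Elf3, an epithelial ETS factor gene, read 6.76, 6.44 and 6.36 in knockout arrays and 7.93, 7.65 and 7.54 in wild-type arrays, a fall of 1.18 (SE 0.14, limma adjusted p = 0.00171). Elk1 differed by 0.10 (95% interval -0.08 to 0.29), the splicing factor gene Hnrnpl by 0.05 (95% interval -0.09 to 0.19) and Cebpb by 0.30 (limma adjusted p = 0.0522). Cebpb was called higher without dim probe sets, with the intensity trend, without wild-type replicate 1 and by the mean over its probe sets. In the main fit 1 gene of this list fell and none rose, beside 10.4% lower and 8.53% higher over all genes.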

How the data were processed

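Total RNA from 3 Med23 knockout and 3 wild-type ES cell cultures was labelled with biotin and hybridised to Affymetrix arrays, per the labels' protocols. The expression table is on a log2 scale as deposited, with the unit read from its values. Per the submitters' processing notes the tools were RMA and MAS5, with no role or version given. Values were used as deposited, and 0 columns of other samples were present. Replicates are called biological in the titles, so p values reflect how these cultures vary. Array controls (64 of 45101 probe sets) were dropped. The platform annotation gave 34945 probe sets 1 symbol, of which 34741 were matched by Entrez identifier to RefSeq (GRCm38.p6) for symbols and gene order; 1 probe set naming a member beside another gene was left out. Detection calls were not used here.

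All 45037 probe sets were fitted with limma 3.58.1 in R 4.3.3 (lmFit, eBayes, no trend, two-sided), with Benjamini-Hochberg adjustment; the fit had 4 residual and 3.08 prior degrees of freedom. The script was tested on simulated data. Members, modules, lists and rules were chosen with earlier results of these data known. Values on every array were given for Med23, Med16, Med24 and members with a called probe set, and for other members up to 3 per module by lowest p; list genes were up to 4 with the largest called change, or the 2 with the lowest p. Differences are given for every member. The levels of Nipbl, Med13, Cdk8, Elk1, Hnrnpl, Cebpb, Xist and Eif2s3y, the X chromosome medians, and the promoters shown were picked with their values in view. The alternatives were quantile normalization, centring on array medians, leaving out probe sets below the median in both groups, an intensity trend, the replicate number as a block, the mean over a gene's probe sets, and leaving out each array. The precision is limited by the number of arrays. No protein sequences were used here.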

Additional observations from a re-analysis of the deposited data

How the results depend on the processing

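Med23 kept its direction and its call under all alternatives tried, with differences between -1.54 and -1.49. Med16 lay between 0.10 and 0.28 when 1 array was left out, and passed only without wild-type replicate 1 (0.28). Med24 lay between 0.10 and 0.22 when 1 array was left out, was 0.04 as the mean over its probe sets, and did not pass under any alternative tried. The count of members that rose (3) was 5 when dim probe sets were left out and 5 with an intensity trend, both adding Med30 and Med31, and 2 to 5 when 1 array was left out. The count that fell (4) was 6 when dim probe sets were left out, 5 with an intensity trend and 5 with the mean over probe sets. It was 2 with array median centring, leaving Med14 and Med23, and 2 in each of the fits that left out an array. Over all probe sets of the members, 5 to 10 rose and 4 to 8 fell when an array was left out. Calls over the whole arrays moved with the setting as well. Of 45037 probe sets, 3013 rose and 3346 fell in the main fit. The counts were 3683 and 3809 with the trend, and 3036 and 3183 with median centring. They were 3790 and 3720 of 23090 without dim probe sets, and 1870 and 2096 of 18193 genes with the mean over probe sets. Partner genes that rose (3) numbered 7 without dim probe sets, 6 with the trend, 5 with the mean over probe sets and 2 to 4 when an array was left out; those that fell (4) numbered 9, 8, 4 and 3 to 5. The mean over all probe sets of a gene was followed for Med16, Med24, Med13 and the members with a called probe set. Among these, 3 changed sign, since this mean joins probe sets that moved in different directions. Cdk19 was 0.07 (not called), Med29 was -0.16 (limma adjusted p = 0.158) and Med1 was 0.47 (limma adjusted p = 0.00116). Other members with probe sets of opposite sign, such as Med6 and Med8, are not in this count. The mean over the Med14 probe sets was -0.61, still called. Without dim probe sets, Cdk19 and Med11 were also called lower, and 1 further Med1 probe set fell. The cause of the other changes was not tested.

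Knockout and wild-type arrays share replicate numbers, but same-numbered arrays did not deviate together (r = -0.133, -0.059 and 0.001 for numbers 1, 2 and 3). In these deviations no array correlated best with the array of its own number in the other group. With the replicate number as a block, Med23 was -1.52, Med16 0.19 and Med24 0.15; 3 members rose and 2 fell, 7 of their probe sets rose and 6 fell, and 2 partner genes rose and 4 fell. Over all probe sets the block gave 1915 higher and 2678 lower, against 3013 and 3346 without it. Leaving out 1 array gave 1497 to 3494 higher and 2289 to 3613 lower.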
